A study of Mus musculus with 6 samples.

Results

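The inflammasome and gasdermin genes described here are 10 named genes, Nlrp3, Nlrp1b, Nlrc4, Aim2, Mefv, Pycard, Casp1, Casp4, Gsdmd and Gsdme, of the 55291 genes listed for mouse liver tumours treated with anti-PD-1. The rule lists them by name and uses no measured value. The tumours were RIL-175/PD-1R tumours, from a mouse line of liver cancer cells, and the meaning of PD-1R is not given in the labels. There were 3 bulk libraries of polyadenylated RNA from LysM-Cre mice (Cre_PD1) and 3 from TREM2-MKO mice (MKO_PD1), which lack Trem2 in myeloid cells. Both groups had received anti-PD-1, an antibody that blocks an inhibitory receptor of T cells, and both carry a Cre driven by the lysozyme M promoter, which works mainly in macrophages, monocytes and neutrophils. Tumour cells, lymphocytes and other cells outside that lineage keep their own Trem2 gene. The labels give no age, sex, dose or sampling time, no tumour without anti-PD-1 is analysed here, and the design text counts 3 mice per genotype without tying a library to an animal. If libraries shared an animal or culture, the p-values below would measure only the spread between these samples.

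Inflammasomes are protein platforms that form in the cytosol when a sensor protein meets a danger signal or a microbial product. The sensors differ in what they detect: NLRP3 responds to ion fluxes and membrane damage, NLRP1B to proteases, NLRC4 to bacterial flagellin and secretion needles delivered by NAIP proteins, AIM2 to DNA in the cytosol, and pyrin (Mefv) to inactivated RhoA. Most of them recruit the adaptor ASC (Pycard), which clusters caspase-1; caspase-1 then matures interleukin-1 beta and interleukin-18 and cuts gasdermin D, whose freed end opens pores in the plasma membrane. Mouse caspase-11, encoded by Casp4, senses bacterial lipopolysaccharide and cuts gasdermin D directly, while gasdermin E (Gsdme) is cut by other proteases, granzyme B among them. In liver tumours these genes are known mostly from macrophages and other myeloid cells, and some of them also from tumour cells. RNA levels do not show whether an inflammasome was assembled or a gasdermin cut.

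Levels are given as TPM, each gene's length-corrected share of a library's transcripts, as each library's value or as the mean ± SD of 3 libraries, and log2 differences are MKO_PD1 minus Cre_PD1 on the log2(TPM + 1) scale with the standard error (SE) of the limma fit. The libraries held 26747481 to 34265123 recovered reads, so 1 read on 1 kb of exon was worth 0.0763 to 0.114 TPM. Trem2 itself, read over the whole gene, stood at 10.5, 16.5 and 14.9 TPM in Cre_PD1 replicates 1, 2 and 3 and at 7.68, 18.0 and 6.81 TPM in MKO_PD1 replicates 1, 2 and 3. The highest of the 6 Trem2 values was thus in a knockout library, the groups overlapped (log2 difference -0.44, SE 0.40, limma adjusted p = 0.432), and since the labels leave unsaid which exons were deleted, its level does not check the genotype here. The tumours differed in tissue content. The summed level of 12 hepatocyte genes was 14720 to 26797 TPM in Cre_PD1 and 143135, 33626 and 99731 TPM in MKO_PD1 replicates 1, 2 and 3, while 7 genes of tumour epithelium summed to 7526 to 13794 TPM in Cre_PD1 and to 1432, 4617 and 3530 TPM in MKO_PD1. All 12 and all 7 genes were detected in every library. Among the myeloid lists, 10 macrophage genes summed to 2132 to 2612 TPM in Cre_PD1 and to 2518, 4667 and 2638 TPM in MKO_PD1 replicates 1, 2 and 3, and 11 neutrophil genes to 142 to 263 TPM and to 299, 1251 and 481 TPM. In the same order of knockout libraries, 8 T cell genes summed to 42.3, 302 and 74.1 TPM, against 73.6 to 137 TPM in Cre_PD1. The 7 monocyte genes summed to 221, 991 and 540.2 TPM, against 975 to 1547 TPM in Cre_PD1, although 5 of the 7 had positive log2 differences. For 8 genes of stellate cells and fibroblasts the sums were 218, 2246 and 634 TPM, against 744 to 1200 TPM in Cre_PD1. For 8 genes of Kupffer cells, the resident liver macrophages, they were 2406, 481 and 1559 TPM, against 256 to 580 TPM in Cre_PD1. MKO_PD1 replicate 2 therefore stood above the other knockout libraries in the macrophage, neutrophil, T cell, monocyte and stromal lists and below them in the hepatocyte and Kupffer cell lists. In bulk RNA, fewer cells of a type and less RNA per cell cannot be told apart.

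No inflammasome or gasdermin gene differed between the groups at the limma adjusted threshold, with adjusted p from 0.173 for Aim2 to 0.597 for Nlrp1b. Among all 16506 tested genes, limma called 0.00606% higher and 0.00606% lower in MKO_PD1, which is 1 gene each way, so hardly any gene of the transcriptome was called. In Cre_PD1 the highest level belonged to Gsdmd, followed by Casp1, Aim2, Casp4 and Mefv, whose ranges over the 3 libraries did not overlap their neighbours in this order. Nlrp3, Pycard and Nlrc4 came next, and neighbours among these 3 overlapped; Nlrp1b and Gsdme were lowest on the length of all their exons and overlapped each other. In MKO_PD1 every neighbouring pair overlapped, because the 3 knockout libraries lay far apart for all members but Gsdme. The plot of levels by library shows each gene.

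**Figure D1:**
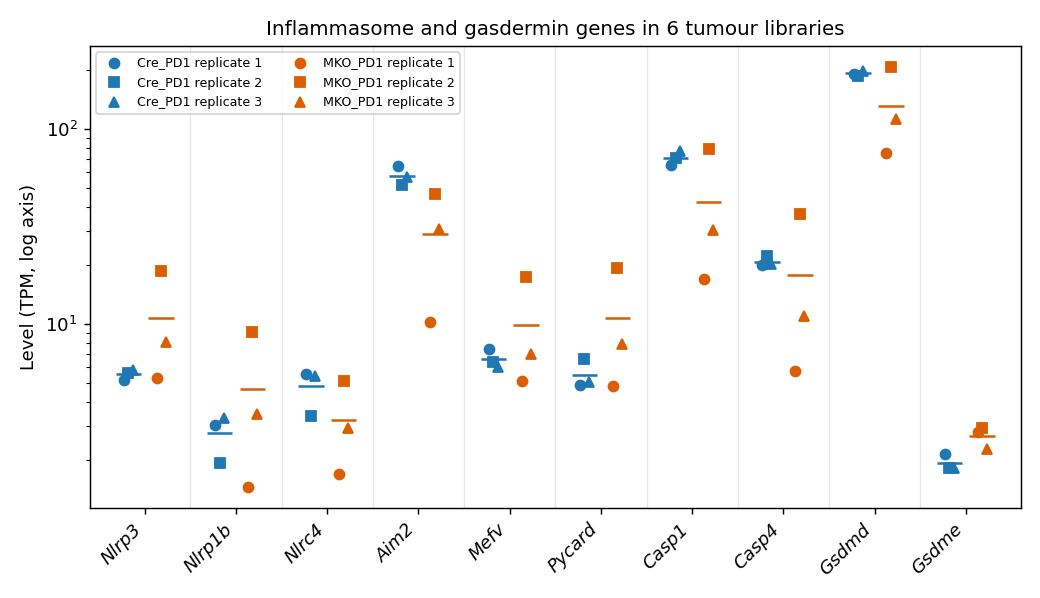
Level of each inflammasome and gasdermin gene in TPM (log axis) in every library; blue marks are the 3 Cre_PD1 libraries, orange marks the 3 MKO_PD1 libraries, shapes give the replicate, and short lines are group means. The Cre_PD1 marks lie close together for Gsdmd, between 187 and 199.7 TPM, and differ by 1.70-fold for Nlrp1b and 1.64-fold for Nlrc4. The MKO_PD1 marks spread widely for all members but Gsdme, with replicate 2 highest of the 3 knockout libraries for each of the 10 genes.

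The knockout libraries took the same order, replicate 2 above replicate 3 above replicate 1, for 9 of the 10 members, Gsdme being the exception. That order also held for 71.9% of all tested genes, so the share is not far above the rest of the transcriptome. A total of 8 members had their highest of 6 values in MKO_PD1 replicate 2, all but Nlrc4 and Aim2, and 23.3% of all tested genes did. A total of 8 members had their lowest of 6 values in MKO_PD1 replicate 1, all but Nlrp3 and Gsdme, against 70.2% of all tested genes.

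The sensor Nlrp3 (ENSMUSG00000032691.14, chr11:59541568-59566956, plus strand, build GRCm38) was at 5.16, 5.62 and 5.82 TPM in Cre_PD1 replicates 1, 2 and 3, and at 5.30, 18.6 and 8.09 TPM in MKO_PD1 replicates 1, 2 and 3. Those levels rest on 207 to 274 reads per Cre_PD1 library and on 282, 756 and 347 reads in the knockout libraries. The Cre_PD1 libraries hardly differed, and 2 of 3 knockout libraries lay above them all, but MKO_PD1 replicate 1 fell within their range. Group means were 5.54 ± 0.337 and 10.7 ± 7.04 TPM, with a log2 difference of 0.67 (SE 0.43, limma adjusted p = 0.288). Without MKO_PD1 replicate 2 the log2 difference was 0.21, and after median-of-ratios scaling, which sets the typical gene equal between libraries, it was 1.08 (limma adjusted p = 0.117).

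Nlrp1b (ENSMUSG00000070390.12, chr11:71153102-71230733, minus strand), the protease-responsive sensor, was at 3.03, 1.94 and 3.29 TPM in Cre_PD1 and at 1.46, 9.08 and 3.46 TPM in MKO_PD1. The knockout group thus held both the lowest and the highest library. Group means were 2.75 ± 0.716 and 4.67 ± 3.95 TPM, and the log2 difference of 0.37 (SE 0.51, limma adjusted p = 0.597) turned to -0.16 without MKO_PD1 replicate 2. Nlrp1b has a close copy, Nlrp1a, that was at 0.636 to 2.19 TPM and too low to be tested; reads could be split between the copies, so both levels are uncertain.

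For Nlrc4 (ENSMUSG00000039193.9, chr17:74425438-74459142, minus strand), the sensor that works with NAIP proteins, the Cre_PD1 libraries stood at 5.54, 3.38 and 5.44 TPM and the MKO_PD1 libraries at 1.70, 5.08 and 2.93 TPM. Of the knockout libraries, replicates 1 and 3 lay below all 3 controls and replicate 2 lay among them. Group means were 4.79 ± 1.22 and 3.24 ± 1.71 TPM and the log2 difference was -0.51 (SE 0.38, limma adjusted p = 0.352). MKO_PD1 replicate 1 held 107 reads of this gene, the fewest of any member in any library.

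Aim2 (ENSMUSG00000037860.15, chr1:173350879-173466040, plus strand), the sensor of cytosolic DNA, was the highest of the 5 sensors. Its level was 64.8, 51.9 and 56.7 TPM in Cre_PD1 replicates 1, 2 and 3 and 10.2, 46.5 and 30.7 TPM in MKO_PD1 replicates 1, 2 and 3, from 469 to 2307 reads. All knockout libraries lay below all controls, and the lowest control exceeded the highest knockout library by a narrow margin. Group means were 57.8 ± 6.53 and 29.1 ± 18.2 TPM, and the log2 difference of -1.19 (SE 0.49) had a limma p of 0.0428 before and 0.173 after adjustment over all genes. Aim2 was the only member past 0.05 before adjustment, against 19.5% of all tested genes lower and 8.47% higher at that unadjusted threshold. Cell cycle genes (10 of 10 detected) moved the same way, at 608 to 695 TPM summed in Cre_PD1 and 119, 580 and 306 TPM in MKO_PD1, and so did the tumour epithelium genes given above; their part in the Aim2 values was not tested.

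Mefv (ENSMUSG00000022534.14, chr16:3707218-3718097, minus strand) encodes pyrin. It was at 7.44, 6.38 and 6.04 TPM in Cre_PD1 and at 5.11, 17.4 and 7.01 TPM in MKO_PD1. The knockout libraries again held both the lowest and the highest value, with group means of 6.62 ± 0.733 and 9.84 ± 6.61 TPM. The log2 difference was 0.35 (SE 0.43, limma adjusted p = 0.564) and -0.12 without MKO_PD1 replicate 2.

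Pycard (ENSMUSG00000030793.4, chr7:127989708-127993867, minus strand) encodes ASC, the adaptor that links sensors to caspase-1. It stood at 4.89, 6.62 and 5.01 TPM in Cre_PD1 and at 4.84, 19.4 and 7.91 TPM in MKO_PD1, with 2 knockout libraries above all controls and 1 just below them. Group means were 5.51 ± 0.963 and 10.7 ± 7.67 TPM, and the log2 difference was 0.66 (SE 0.46, limma adjusted p = 0.326). The level of this gene depends on its gene model, which holds coding transcripts of 493 and of 3800 bases: all 3800 exon bases enter the length, so a tumour that used the short form would appear lower than it was. Of those exon bases, 485 (12.8%) also lie in Gm45205 on the opposite strand, and the counting is not stated to use strand, so reads of the 2 genes there cannot be told apart. Across the 6 libraries Pycard followed Nlrp3 closely (Pearson r = 0.98 on the log2 scale, a description over libraries that share their tissue content), and the Nlrp3 to Pycard ratio was 1.06, 0.850 and 1.16 in Cre_PD1 and 1.10, 0.962 and 1.02 in MKO_PD1. The ratio therefore barely moved between libraries whose Nlrp3 levels differed widely (log2 difference 0.013, two-sided exact permutation p = 1).

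The inflammatory caspases Casp1 and Casp4 are neighbours on chromosome 9. Casp1 (ENSMUSG00000025888.5, chr9:5298517-5307265, plus strand) was at 65.3, 71.3 and 77.3 TPM in Cre_PD1 replicates 1, 2 and 3 and at 17.0, 78.8 and 30.2 TPM in MKO_PD1 replicates 1, 2 and 3. Replicates 1 and 3 of the knockout lay below all controls and replicate 2 lay above them all. Group means were 71.3 ± 5.99 and 42.0 ± 32.5 TPM, with a log2 difference of -1.02 (SE 0.50, limma adjusted p = 0.2003). Casp1 could not be turned back into whole reads, so its deposited value was kept and no read count is given for it.

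Casp4 (ENSMUSG00000033538.13, chr9:5308828-5336783, plus strand), the lipopolysaccharide-sensing caspase, had the same order of knockout libraries at a lower level: 20.1, 22.3 and 20.3 TPM in Cre_PD1 and 5.78, 36.7 and 10.9 TPM in MKO_PD1. MKO_PD1 replicate 2 alone was above the controls. Group means were 20.9 ± 1.22 and 17.8 ± 16.6 TPM and the log2 difference was -0.59 (SE 0.57, limma adjusted p = 0.457). The Casp4 level is per 3710 bases of all its exons, against 1435 bases of the transcript with the longest coding sequence. On the latter its mean over 6 libraries of 19.4 TPM would be 50.1 TPM, beside 56.7 TPM for Casp1. Casp1 has 1 transcript in the gene model, but its value gave no whole reads on that length. The length behind the Casp1 value is thus not certain, and the levels of the 2 caspases cannot be closely compared. On the length of all exons, the Casp4 to Casp1 ratio was 0.308, 0.313 and 0.263 in Cre_PD1 and 0.339, 0.466 and 0.362 in MKO_PD1. All knockout ratios lay above all control ratios (difference 0.43 on the log2(TPM + 1) scale, 1.34-fold), at the two-sided exact permutation p of 0.1 that is the smallest 3 against 3 can give, and 0.3 after adjustment over the 6 ratios tested.

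Gsdmd (ENSMUSG00000022575.5, chr15:75862327-75867408, plus strand), the pore-forming target of both caspases, was the most abundant member, ranking 848 of 16506 tested genes by mean level. It stood at 193, 187 and 199.7 TPM in Cre_PD1 replicates 1, 2 and 3 and at 75.2, 209 and 112 TPM in MKO_PD1 replicates 1, 2 and 3. The controls differed by at most 1.07-fold, while the knockout libraries differed by 2.77-fold and reached both above and below them. Group means were 193 ± 6.29 and 132 ± 68.9 TPM, with a log2 difference of -0.67 (SE 0.37, limma adjusted p = 0.235). Gsdmd and Casp1 had the most similar pattern of any 2 members (Pearson r = 0.997 over 6 libraries).

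Gsdme (ENSMUSG00000029821.15, chr6:50188888-50263862, minus strand) was the lowest member on the length of all its exons, at 2.16, 1.82 and 1.83 TPM in Cre_PD1 and 2.78, 2.91 and 2.28 TPM in MKO_PD1, from 204 to 465 reads. All knockout libraries lay above all controls, and it was the only member for which MKO_PD1 replicates 1 and 2 were nearly equal. Group means were 1.94 ± 0.194 and 2.66 ± 0.336 TPM and the log2 difference was 0.31 (SE 0.26, limma adjusted p = 0.402). The level depends on the gene model: the exons of all its transcripts cover 12742 bases against 2502 bases of the transcript with the longest coding sequence, and the mean over 6 libraries of 2.30 TPM would be 11.7 TPM on that transcript's length. On that length Gsdme would rank above Mefv, Nlrp3, Pycard, Nlrc4 and Nlrp1b, whose means per transcript with the longest coding sequence were 9.77, 8.18, 8.11, 6.11 and 5.66 TPM. A shorter length would also weigh the pseudocount less: with a pseudocount of 0.1 the log2 difference of Gsdme was 0.43.

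Relative to Gsdmd in the same library, Gsdme was at 0.0112, 0.00974 and 0.00915 in Cre_PD1 and at 0.0370, 0.0140 and 0.0203 in MKO_PD1. All knockout ratios were above all control ratios, by 0.99 or 1.98-fold on the log2(TPM + 1) scale, which understates the fold of so low a gene (two-sided exact permutation p = 0.1, and 0.3 adjusted over 6 ratios). Without MKO_PD1 replicate 1 the difference was 0.62. MKO_PD1 replicate 1, with the most hepatocyte RNA, had the highest ratio and MKO_PD1 replicate 2, with the least of the knockout libraries, the lowest of its group. Among the controls it went the other way. Cre_PD1 replicate 1 had the highest control ratio and the least hepatocyte RNA, at 14720 TPM against 26797 and 26561 TPM in replicates 2 and 3. The part of the hepatocyte RNA in the ratio was not tested. The Nlrp1b to Nlrp3 ratio (log2 difference -0.30, exact permutation p = 0.3) overlapped between the groups.

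Promoter sequences were set beside these patterns. RefSeq promoters of build GRCm38.p6 were found for 9 of the 10 members, 12 promoters in all; Gsdmd is named only. The 250 bases before each start site were searched on both strands for 4 short motifs bound by factors that act in myeloid cells and inflammation. These were the PU.1 motif GAGGAAGT, found in 2.44% of 32851 promoters, the STAT motif TTCNNNGAA, in 7.02%, the interferon regulatory factor motif GAAANNGAA, in 7.13%, and the kappaB motif of NF-kappaB, in 3.90%. The PU.1 letters occurred in promoters of 3 members, Aim2, Pycard and Nlrp1b, the kappaB motif in promoters of Casp4 and Nlrp3, and the other motifs in none. For Nlrp1b the match lies before the first of 2 start sites, and none lies before the second. At the Nlrp1b and Nlrp3 start sites with a match, an unbroken stretch of genome soon after the start was found in no GENCODE M21 transcript of the gene. The same held for the Mefv start site. At the other Nlrp1b and Nlrp3 start sites, which have no match, the stretch was found. A first exon that ends within the stretch would also fail, so the check cannot decide whether GENCODE has a start there. The GENCODE gene begins at the same base as that start site for Nlrp1b (chr11:71230733), and at 59541568 against 59541569 for Nlrp3. The 150 bases before the start site are shown for the 3 members with the PU.1 letters and for the neighbouring caspases, with any match in capitals, from chr1:173420454-173420603 (plus strand), chr7:127993868-127994017 (minus), chr11:71230734-71230883 (minus), chr9:5298367-5298516 (plus) and chr9:5308699-5308848 (plus).
Aim2: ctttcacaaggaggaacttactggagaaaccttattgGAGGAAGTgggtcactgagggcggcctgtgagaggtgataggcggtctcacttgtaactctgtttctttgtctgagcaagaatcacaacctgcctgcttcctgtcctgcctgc
Pycard: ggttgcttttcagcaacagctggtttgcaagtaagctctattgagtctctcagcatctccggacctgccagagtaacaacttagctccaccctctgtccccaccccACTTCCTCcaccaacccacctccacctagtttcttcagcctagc
Nlrp1b: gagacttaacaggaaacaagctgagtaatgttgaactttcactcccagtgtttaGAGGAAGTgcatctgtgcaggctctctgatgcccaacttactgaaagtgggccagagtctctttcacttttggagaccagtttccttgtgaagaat
Casp1: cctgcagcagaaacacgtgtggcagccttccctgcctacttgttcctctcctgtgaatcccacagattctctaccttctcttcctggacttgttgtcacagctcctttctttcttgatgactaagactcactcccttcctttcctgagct
Casp4: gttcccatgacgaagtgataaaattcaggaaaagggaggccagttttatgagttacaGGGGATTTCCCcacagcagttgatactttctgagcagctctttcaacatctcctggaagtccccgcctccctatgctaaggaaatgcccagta
The capitals in Aim2 and Nlrp1b are the PU.1 letters on the strand shown, those in Pycard are the same letters on the opposite strand, and those in Casp4 are overlapping kappaB matches. Casp1, whose levels ran beside those of Casp4 (Pearson r = 0.95), held none of the 4 motifs in this window, and the Nlrp3 match lay in the promoter of one of its 2 start sites, outside the bases nearest to it. Of the members that carry the PU.1 letters, Aim2 had a negative and Pycard and Nlrp1b a positive log2 difference. A match of letters is a description and not a binding site, and its absence says only that these letters are not in this window.

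Seen as a list, 5 members had a positive and 5 a negative log2 difference, against 27.1% of all tested genes with a positive one. The median of the members was -0.095, that of all tested genes -0.42, a gap of 0.32. The members with positive differences were Nlrp3, Pycard, Nlrp1b, Mefv and Gsdme, and those with negative ones Aim2, Casp1, Gsdmd, Casp4 and Nlrc4. Groups did not overlap in TPM for 1 member higher in MKO_PD1, Gsdme, and 1 lower, Aim2, where 10.1% of all tested genes were apart higher and 28.9% apart lower. Neither count of members is a larger share than that of all genes, so non-overlap gives no result for the list.

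The scaling moved this reading. After median-of-ratios scaling the median of all tested genes was -0.018 in place of -0.42 and that of the members 0.25, and every member kept its sign. Then 4 members, Nlrp3, Pycard, Mefv and Gsdme, had knockout libraries above all controls and 1 member, Aim2, had them below, where 18.6% and 21.2% of all tested genes did. Log2 differences on this scale were 1.08 for Nlrp3, 1.06 for Pycard, 0.75 for Mefv and 0.66 for Gsdme, and -0.73 for Aim2. None passed the limma adjusted threshold, with adjusted p from 0.117 to 0.798 over the 10 members.

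Leaving out MKO_PD1 replicate 2 changed the calls. Without it, limma called 4 members lower in MKO_PD1: Aim2 (log2 difference -1.63, adjusted p = 0.0305), Casp1 (-1.60), Casp4 (-1.28) and Gsdmd (-1.06), the last 3 with an adjusted p of 0.0290. In the same comparison 38% of all tested genes were called lower and 7.88% higher, and the median of all tested genes was -0.66, so 4 of 10 is near the background and gives no result about the members. Without MKO_PD1 replicates 1 and 3, the libraries with the most hepatocyte RNA, no member was called (the lone knockout library is assumed to vary like the controls), and the log2 differences of Casp1, Casp4, Gsdmd and Nlrc4 were 0.15, 0.78, 0.11 and 0.095. The direction for these 4 genes therefore depended on which knockout libraries were counted, while Nlrp3, Pycard and Gsdme stayed above 0 and Aim2 below 0 in both cases.

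**Figure D2:**
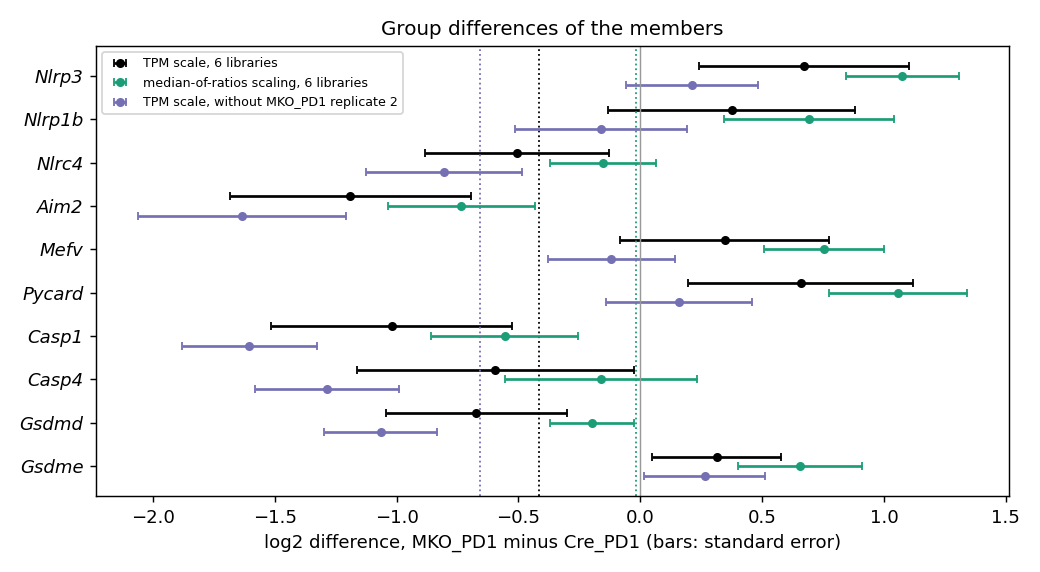
Log2 difference of each member, MKO_PD1 minus Cre_PD1, with its standard error as bars, for all 6 libraries on the TPM scale (black), all 6 after median-of-ratios scaling (green) and without MKO_PD1 replicate 2 (purple); dotted lines of the same colour mark the median of all tested genes. Aim2, Casp1, Casp4, Gsdmd and Nlrc4 lie left of the dotted line of each colour and the other 5 members right of it, with the black mark of Aim2 at -1.19.

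To set the members against the amount of macrophage RNA, the mean log2 level of 10 macrophage genes was subtracted from each member within each library. Although the summed TPM of these genes overlapped between the groups, their mean log2 level did not. The controls had means of 6.55 to 6.81. All knockout means were higher, at 6.88 for replicate 1, 7.73 for replicate 2 and 6.99 for replicate 3. Subtracting a higher mean lowers every gene of that library, most of all in MKO_PD1 replicate 2. For Nlrp3, Nlrp1b, Pycard, Gsdme and Mefv the groups then overlapped, with log2 differences of 0.17, -0.12, 0.16, -0.18 and -0.15 and two-sided exact permutation p from 0.5 to 0.8. Nlrc4 (-1.002), Aim2 (-1.69), Casp1 (-1.52), Casp4 (-1.09) and Gsdmd (-1.17) had all knockout libraries below all controls, each at the smallest possible exact permutation p of 0.1 and at 0.2 adjusted over the 10 members. MKO_PD1 replicate 2 shared that lower position: its Gsdmd value was -0.022 against 0.81 to 1.04 in the controls, and its Casp1 value -1.41 against -0.57 to -0.50. For Casp4 the margin was narrow, with -2.49 in MKO_PD1 replicate 2 against -2.40 to -2.15 in the controls. By the same measure 68% of all tested genes were apart lower and 0.733% apart higher, so a lower position is what most genes had, and the 5 of 10 members with it are a smaller share than that of all genes. The tumour epithelium and cell cycle lists were also below all controls in summed TPM, and their part in these differences was not tested.

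**Figure D3:**
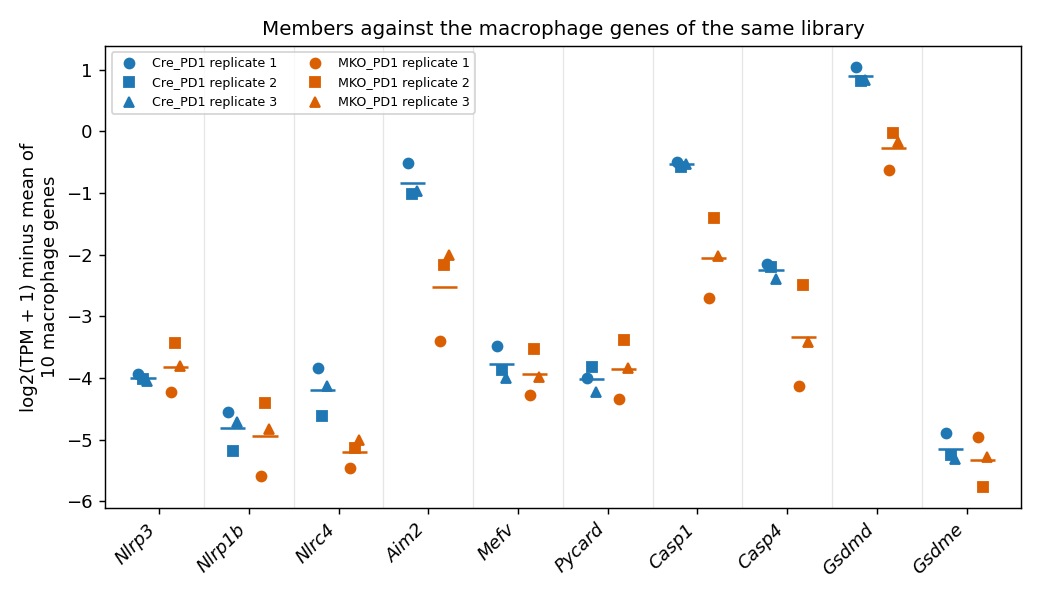
Level of each member relative to macrophage genes, as log2(TPM + 1) minus the mean of 10 macrophage genes in the same library; blue marks are Cre_PD1, orange marks MKO_PD1, shapes give the replicate and short lines are group means. Orange marks lie below all blue marks for Nlrc4, Aim2, Casp1, Casp4 and Gsdmd and overlap them for the other 5 members. The subtracted macrophage mean was itself higher in every knockout library than in every control.

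The genes most like 4 of the members over the 6 libraries were ranked by Pearson r among 10935 genes, as a description, since the points share their library and tissue content. Nlrp3 was closest to Ccr2, the receptor that recruits monocytes (r = 0.998), Syk, a kinase of immune receptors (0.996), and Cd200r1, an inhibitory receptor of myeloid cells (0.993). Ccr2 stood at 5.73 to 7.13 TPM in Cre_PD1 and at 6.17, 28.5 and 10.3 TPM in MKO_PD1 replicates 1, 2 and 3. Casp1 was closest to Nck1, Rps6kb2 and Ppwd1 (r of 0.999 each), and Gsdmd to the transcription factor gene Egr3 and to Tinf2 and Tdg (0.9997, 0.999 and 0.999), genes of telomere protection and of DNA repair. Gsdme was closest to Iglc1, an immunoglobulin light chain (0.989), Abcg3 (0.967) and Clec4a3 (0.962). Among the members themselves r ran from -0.58, for Aim2 with Gsdme, to 0.997.

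The wider pathway was read from 7 lists of other genes, 84 in all, of which 82 had a row; Naip7 and Irgb10 were not analysed here. Of the 71 that were tested, limma called 0 either way (9 higher and 9 lower at an unadjusted p under 0.05, in 8.47% and 19.5% of all genes, and 0 by voom on recovered reads), and 23 had a positive log2 difference and 48 a negative one. Their median was -0.29 against -0.42 for all tested genes, and after median-of-ratios scaling 45 were positive and 26 negative. A total of 13 had knockout libraries above all controls and 11 below, in 10.1% and 28.9% of all genes. Without MKO_PD1 replicate 2, 6 were called higher and 24 lower, near the 7.88% and 38% of all tested genes called in that fit.

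Among 6 tested sensors outside the members, none was called. Nlrp6, a sensor best known from intestine and liver, was at 11.2, 24.7 and 33.4 TPM in Cre_PD1 and at 91.9, 42.9 and 88.5 TPM in MKO_PD1. Its groups did not overlap (log2 difference 1.69, SE 0.46, limma adjusted p = 0.168), and its knockout order, with replicate 2 lowest, was the reverse of that of most members and the same as that of the hepatocyte genes. Nlrp12 was at 1.12, 1.61 and 2.33 TPM in Cre_PD1 and at 9.97, 1.82 and 9.71 TPM in MKO_PD1, where replicate 2 again lay near the controls (log2 difference 1.39, limma adjusted p = 0.168). Both genes were called higher without MKO_PD1 replicate 2, by 2.04 each (limma adjusted p = 0.0290), and Naip2 was called lower, with a log2 difference of -0.82 (limma adjusted p = 0.0406); the part of the hepatocyte RNA was not tested. Naip6, a flagellin-binding partner of NLRC4, was at 8.78 ± 3.89 and 5.93 ± 3.15 TPM (log2 difference -0.52). None of the 8 other gasdermin genes was tested, since the highest value of any in any library was 0.880 TPM, for Pjvk.

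Of 12 interleukin-1 family genes, 8 had positive and 4 negative log2 differences, and none was called. Il1a, an alarmin, was at 4.83, 9.62 and 8.84 TPM in Cre_PD1 and at 14.2, 18.2 and 15.0 TPM in MKO_PD1, and Il18, a substrate of caspase-1, at 10.6, 17.9 and 15.4 TPM and at 47.9, 24.4 and 33.4 TPM. All knockout libraries were above all controls for both (log2 differences 0.98 and 1.19, limma adjusted p = 0.168 each). The knockout order of Il18, with replicate 1 highest and replicate 2 lowest, was that of the hepatocyte genes, while that of Il1a was the reverse. Il1b, the other substrate of caspase-1, was at 33.9, 45.5 and 46.6 TPM in Cre_PD1 and at 37.5, 83.5 and 39.5 TPM in MKO_PD1, with overlapping groups (log2 difference 0.26, SE 0.35, limma adjusted p = 0.603). The antagonists did not have one pattern either: Il1rn was at 21.9 ± 5.41 and 32.1 ± 20.7 TPM with overlapping groups, and Il18bp, which captures interleukin-18, was at 37.9 ± 3.53 and 62.4 ± 13.7 TPM with groups apart (log2 difference 0.69, limma adjusted p = 0.168). The receptor subunit Il1rap was at 4.57 ± 2.29 and 14.1 ± 5.498 TPM, also apart (log2 difference 1.46, limma adjusted p = 0.168). At 18.8, 8.02 and 15.5 TPM in MKO_PD1 replicates 1, 2 and 3, it too had the knockout order of the hepatocyte genes. The part of the hepatocyte RNA in Il18 and Il1rap was not tested. The ratios of Il1b to Il1rn and of Il18 to Il18bp overlapped between the groups, with log2 differences of -0.12 and 0.50 and two-sided exact permutation p of 0.8 and 0.4.

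The list of apoptotic caspases and gasdermin-cleaving proteases had 3 positive and 7 negative log2 differences among 10 genes, none called. Casp6, a caspase gene, was at 41.5, 43.0 and 45.8 TPM in Cre_PD1 and at 14.4, 27.8 and 23.1 TPM in MKO_PD1. All knockout libraries lay below all controls, with group means of 43.4 ± 2.18 and 21.8 ± 6.81 TPM (log2 difference -1.01, SE 0.29, limma adjusted p = 0.168). Elane, the neutrophil elastase gene, was at 1.70, 5.42 and 2.78 TPM in Cre_PD1 and at 10.7, 31.9 and 10.3 TPM in MKO_PD1, apart from the controls by 2.02 on the log2 scale (SE 0.51, limma adjusted p = 0.168). The 11 neutrophil genes also summed higher in all 3 knockout libraries, and the part of neutrophil content was not tested.

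Among 8 genes of membrane rupture and repair, 1 had a positive and 7 a negative log2 difference, 5 with all knockout libraries below all controls, and none was called. Of all tested genes 28.9% lay apart lower in TPM and 21.2% after median-of-ratios scaling. Chmp4b, an ESCRT component that seals membrane wounds, was at 383 ± 14.1 and 234 ± 98.8 TPM (log2 difference -0.79, limma adjusted p = 0.175). Vps4a, the ATPase that recycles ESCRT filaments, was at 62.9 ± 2.56 and 40.8 ± 11.9 TPM, and Anxa2, a calcium-dependent membrane binder, at 1933 ± 542 and 609 ± 368 TPM. Their log2 differences were -0.65 and -1.88 and their groups did not overlap. After median-of-ratios scaling 3 of the 8 were positive and 5 negative.

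Of 19 tested regulators of inflammasomes 6 had positive and 13 negative log2 differences, and of 16 genes of NF-kappaB priming 3 and 13, with none called in either list. The channel gene Panx1 stood at 11.9 ± 0.471 and 6.42 ± 5.001 TPM, the caspase-8 gene Casp8 at 91.2 ± 16.0 and 51.5 ± 24.7 TPM, and Serpinb1a, an inhibitor of neutrophil proteases, at 93.1 ± 30.4 and 37.7 ± 30.0 TPM, each with overlapping groups. Tlr2, a receptor for bacterial lipoproteins, was at 6.82, 13.4 and 15.7 TPM in Cre_PD1 and at 26.2, 45.2 and 24.9 TPM in MKO_PD1, all above the controls (log2 difference 1.37, SE 0.38, limma adjusted p = 0.168). Rela, the NF-kappaB subunit, was lower in all knockout libraries, at 120.1 ± 8.08 and 80.5 ± 21.6 TPM (log2 difference -0.60, limma adjusted p = 0.182), and Irak4, a kinase below the Toll-like receptors, overlapped at 24.4 ± 3.71 and 15.0 ± 6.05 TPM. After median-of-ratios scaling the priming list had 11 positive and 5 negative differences, and the regulators 12 and 7.

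**Figure D4:**
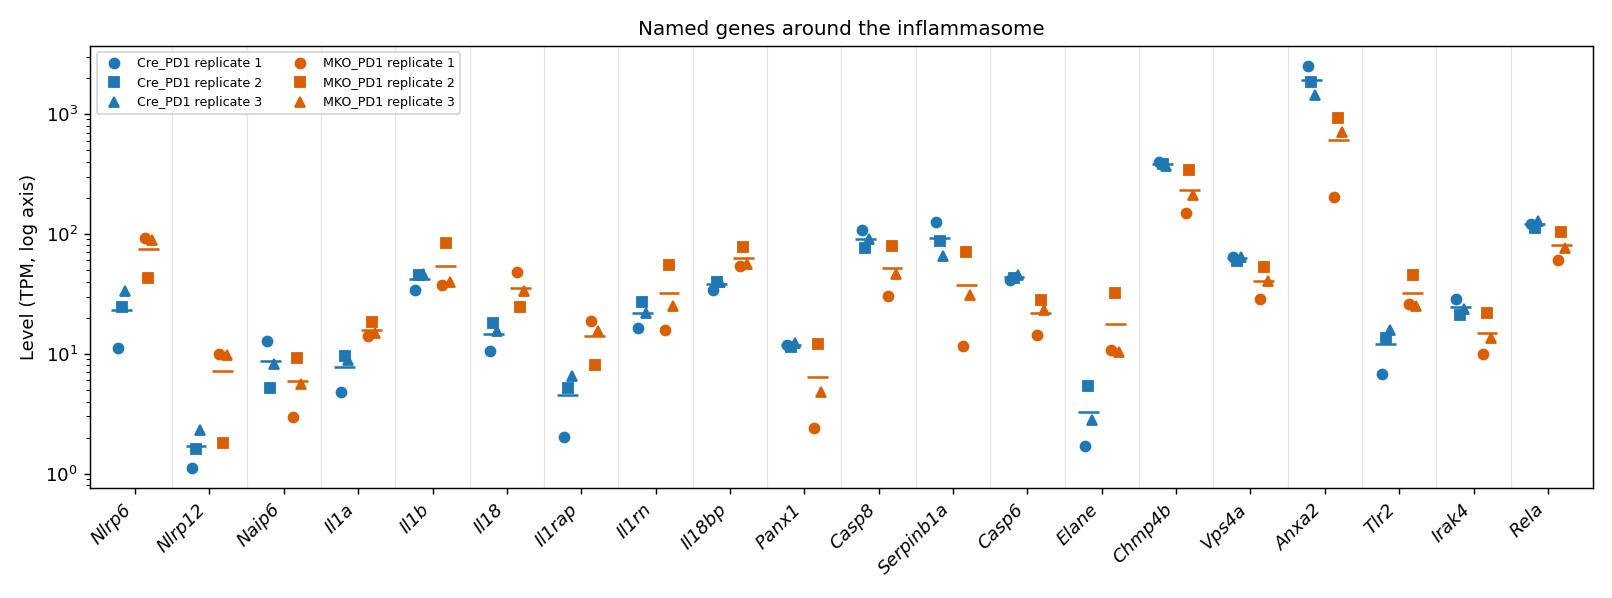
Levels in TPM (log axis) of the named genes around the inflammasome in every library, with blue marks for Cre_PD1, orange marks for MKO_PD1, shapes for the replicate and short lines for group means. Nlrp6, Il1a, Il18, Il1rap, Il18bp, Elane and Tlr2 have all orange marks above all blue ones, and Casp6, Chmp4b, Vps4a, Anxa2 and Rela have them below.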

How the data were processed

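The deposited table holds 1 signal value per gene and library, which the authors named TPM. Per the submitters' processing notes, STAR 2.7.10a and featureCounts 2.0.3 of Subread were used with mouse build mm10; how the values were made from reads is not stated. The column sums ran from 70363 to 105281, so the deposited signal is not scaled to a fixed total, and each column was rescaled to 1000000 here, which makes the values TPM. Each value times the exon length in GENCODE M21 (53186 of 55291 genes matched by symbol) was a whole multiple of 1 shared constant, within 0.001 reads, for 29354 of 29802 genes above 0 (98.5%), which gave the recovered reads.

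Genes of at least 1 TPM in at least 3 of 6 libraries were tested, 16506 in all, as log2(TPM + 1), with a pseudocount of 1, by limma 3.58.1 in R 4.3.3 (trend, no covariate), with p-values adjusted by Benjamini-Hochberg across the whole table and called under 0.05. Fold changes on this scale understate those of low genes. Ratios used two-sided exact permutation tests over samples, written directly in Python 3.11.15, whose smallest p is 0.1 for 3 against 3. Alternatives changed the pseudocount (0.1, 0.5), filter (none, 5 TPM), scaling, trend, threshold (0.1), replicate block, libraries and tool (voom on recovered reads, which lacks Casp1); leaving out MKO_PD1 replicates 1 and 3 was added after the data were seen. The procedure was tested on simulated data.

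The members and lists were chosen with earlier results of these data known. The genes named are all members and, of each other list, the 3 tested genes of smallest unadjusted p and those of the ratios; 1 gene that the rule takes is not reported here, and Pjvk, Nlrp1a and Naip2 were named after their values were seen. For likeness the 3 genes of highest Pearson r are named. Gene positions are from GENCODE M21 (GRCm38). Reads carry no molecular identifiers, so read numbers cover counting error only.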

Additional observations from a re-analysis of the deposited data

How the results depend on the processing

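No member and no other pathway gene was called under the alternatives run, except without MKO_PD1 replicate 2. Leaving out each library in turn gave 0 to 4 members called and 0 to 30 other pathway genes, the upper values without MKO_PD1 replicate 2. The cause was not tested. In that fit 38% of all tested genes were called lower and 7.88% higher. Of 157 member log2 differences recomputed, 151 kept their direction. Changing the filter, the trend or the replicate block leaves a gene's log2 difference as it is. Those settings could not turn a direction, so the count of 151 overstates how firm the directions are. Without MKO_PD1 replicate 2 the log2 difference of Nlrp1b was -0.16 (0.86 at the highest with another library left out) and that of Mefv -0.12 (0.68). Without MKO_PD1 replicates 1 and 3 it was 0.095 for Nlrc4, 0.15 for Casp1, 0.78 for Casp4 and 0.11 for Gsdmd. Against the macrophage mean, values with 1 library left out ran from -0.019 to 0.38 for Nlrp3, -0.39 to 0.20 for Nlrp1b, -0.073 to 0.41 for Pycard, -0.37 to 0.033 for Gsdme and -0.35 to 0.021 for Mefv, and the Nlrp3 to Pycard log2 ratio from -0.095 to 0.097. A 5 TPM filter leaves 8 members and fewer genes, and drops Nlrp1b and Gsdme, both with positive log2 differences. With it the gap between the medians of members and all genes turned from 0.32 to -0.048. The gap was 0.0054 with no filter, 0.18 without MKO_PD1 replicate 2 and 0.61 without MKO_PD1 replicates 1 and 3. By voom, which lacks Casp1, a member with a negative difference, it was 0.86. In the main fit no member lay between -0.51 for Nlrc4 and 0.31 for Gsdme. The median of the members therefore moves with which members are kept. Other parts of these shifts were not tested. The replicate numbers were not taken as pairs: the correlations of same-numbered deviations were -0.42, -0.26 and 0.049, and not every sample correlated best with its own number. With 3 libraries per group that differ in tissue content, these correlations cannot decide whether the numbers were paired. The replicate block called 0 members and 0 other pathway genes. Depth limits Nlrc4 and Nlrp1b most, at 107 to 271 and 121 to 572 reads.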

Other observations

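Other genes of the interleukin-1 family and the guanylate-binding proteins, chosen after their values were seen, also split by library. Il33, an alarmin of epithelial and stromal cells, was the most abundant of the 12 family genes, at 559, 400.4 and 349 TPM in Cre_PD1 replicates 1, 2 and 3 and at 30.97, 274 and 120.3 TPM in MKO_PD1 replicates 1, 2 and 3. All knockout libraries lay below all controls (log2 difference -2.07, SE 0.69, limma adjusted p = 0.168). Il18rap, a signalling subunit of the interleukin-18 receptor, was at 42.1 ± 4.47 and 19.1 ± 15.5 TPM, also apart (log2 difference -1.48, limma adjusted p = 0.174), while its partner Il18r1 overlapped, with a log2 difference of 0.030. Il1r1, the interleukin-1 receptor, was nearly even within each group, at 24.2 ± 2.01 and 31.4 ± 0.634 TPM, and apart upward (log2 difference 0.36, limma adjusted p = 0.281).

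Gbp2, an interferon-induced GTPase that helps release bacterial ligands to inflammasomes, was at 376, 667 and 725 TPM in Cre_PD1 and at 189, 1811 and 453 TPM in MKO_PD1. Gbp5 followed the same library order within the knockout, at 8.32, 94.2 and 19.9 TPM. Both had MKO_PD1 replicate 2 as the highest and replicate 1 as the lowest of 6 libraries, with log2 differences of -0.075 and 0.027 (limma adjusted p = 0.944 and 0.981).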
